A study of Mus musculus with 2 samples.

Results

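The genes described here lie at the far end of mouse chromosome 11, next to the telomere. They comprise 57 listed genes, from Socs3 to Metrnl, out of 38458 genes counted in each single-cell RNA-sequencing library. The list was set by position, as genes of the last 4 Mb of the chromosome (GRCm38/mm10), and the region itself was selected on its high PD800 to PD100 ratio in these same data. That ratio is therefore given as a description, without a test. The first member started at chr11:117966079 and the last annotated gene of the chromosome ended at chr11:121970685.

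The cells were mouse embryonic stem cells (mESCs) of line DKO741, derived from E14 cells by deleting both alleles of Terc, which encodes the RNA template of telomerase. The 2 groups carried the same genotype and differed in the time in culture. PD100 cells were harvested at population doubling 100, before the alternative lengthening of telomeres (ALT), and PD800 cells at population doubling 800, when they survived by ALT. The labels also call these time points passages. DKO741 is a single knockout line grown on embryonic fibroblast feeders and used feeder-free, and each time point was represented by 1 library made with inDrops, a droplet method that counts transcripts by unique molecular identifiers (UMIs). With 1 library per time point no test between time points is possible, and every interval below is a 95% interval for counting error only.

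Mouse chromosomes have their centromere at one end, so the genes listed here are the ones nearest to the long-arm telomere. Telomerase adds telomeric repeats to such ends. In cells that lack it the ends shorten, and rare survivors maintain them by recombination, a process known as ALT. The genes of this chromosome end have no common function: they encode actin, ubiquitin ligase and signalosome subunits, membrane sorting factors, mitochondrial proteins and nuclear regulators.

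Cells with 1000 or more UMIs and at most 20% mitochondrial UMIs were kept, which left 814 PD100 cells with 1826233 UMIs and 900 PD800 cells with 2580963 UMIs. The median cell had 2151 UMIs in PD100 and 2701.5 in PD800. The median mitochondrial share was 1.23% in PD100 and 4.42% in PD800. Terc had 0 UMIs in both libraries, which at a floor of 3 counts allows a level of up to 1.64 CPM in PD100 and 1.16 CPM in PD800 (CPM, the UMIs of a gene scaled by the library total to parts per 1000000). No library of cells with intact Terc was available to show that this method detects it, so these counts are no check of the deletion. The 8 stem cell markers checked were above 0 in both libraries, at 11797 and 12333 CPM in sum. The 7 fibroblast markers summed to 24 UMIs in PD100 and 32 in PD800, with Col1a1 and Lum at 0 in PD100 and Dcn at 0 in PD800. The 12 extraembryonic endoderm markers summed to 1051 UMIs in PD100 and 87 in PD800, where Gata6 and Srgn were at 0. In PD100, 40 cells had 5 or more endoderm marker UMIs and held 5.27% of the library's UMIs, and in PD800 no cell did. The libraries shared 21 barcodes, 8 of them among the cells kept.

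The end of chromosome 11 gave a larger share of all transcripts in PD800. The 57 members had 12564 UMIs in PD100 and 24450 in PD800, which was 0.688% and 0.947% of the library. The level of the sum was 6880 CPM (6760 to 7001) in PD100, against 9473 CPM (9355 to 9593) in PD800. Of these UMIs, Actg1 alone, which encodes cytoplasmic gamma-actin, held 46.9% in PD100 and 34.2% in PD800. Without Actg1 the sum went from 3653 CPM (3566 to 3742) in PD100 to 6230 CPM (6134 to 6327) in PD800, a log2 ratio of 0.77 (0.73 to 0.81).

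Single genes were compared where the libraries together held at least 50 UMIs, which was true of 6984 genes and of 39 members. The minimum applies to the sum, so a gene low in 1 library can pass through the other, and PD800 held more UMIs. The median gene of these 6984 had a log2 ratio of -0.34 between PD800 and PD100, so ratios are given relative to that median. Of the 39 members, 35 were above it and 4 below it, and the relative median was 1.18 (0.93 to 1.38). Members at least 2-fold higher in PD800 on this relative scale numbered 25, where 13.9% of all genes compared were that much higher. None of the 39 members was at least 2-fold lower, against 7.79% of all genes. Among the members under the minimum, Timp2, Cyth1, Lgals3bp and Metrnl had intervals below the median of all genes. Those of Ccdc57 and B3gntl1 lay above it. Scaled by library totals alone, 15 members were at least 2-fold higher (9.22% of all genes) and only Usp36 among the 39 was at least 2-fold lower (16.9% of all genes). By this scale the median log2 ratio of the members was 0.84. Since these same values drew attention to the region, the counts describe it and test nothing.

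The high ratios did not fill the whole region. From Chmp6 on every tested member was above the median of all genes, while the tested members on its centromere side ranged from -0.85 for Usp36 to 2.31 for Endov. Socs3, at 0.59, was also above the median there, and higher than the lowest members beyond Chmp6. The 18 members from Socs3 to Rptor included 7 with 50 or more UMIs, of which 3 were above the median and 4 below, with a relative median of -0.43. The 39 members from Chmp6 to Metrnl included 32 with 50 or more UMIs. All 32 were above the median and 24 were at least 2-fold higher, where 13.9% of all genes compared were. Their relative median was 1.26 (1.05 to 1.48). The boundary was placed after the values were seen. It falls in the 13.9 kb between the end of Rptor at chr11:119899576 and the start of Chmp6 at chr11:119913441, 2.06 Mb before the end of the last annotated gene.

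**Figure D1:**
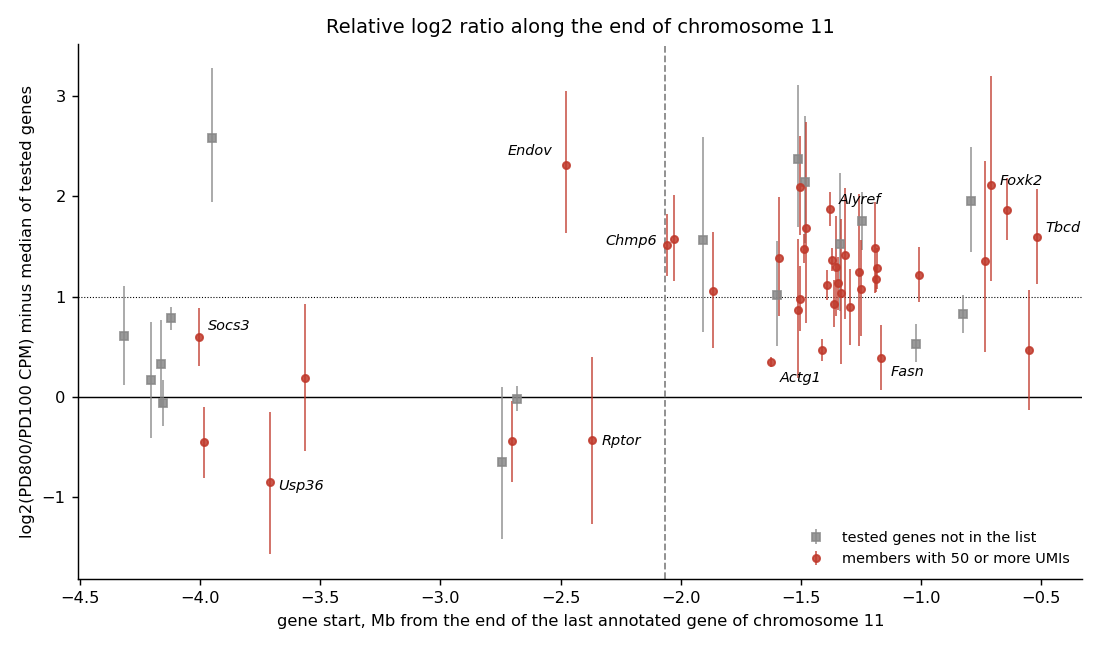
Relative log2 ratio (PD800 over PD100, minus the median of all tested genes) against the start of each gene, in Mb from the end of the last annotated gene of chromosome 11. Red circles are the 39 members, grey squares are the 12 unlisted genes of the last 4 Mb and the 5 genes just before it, bars are 95% counting intervals, the dotted line marks a 2-fold difference and the dashed line the gap before Chmp6. All points right of the dashed line lie above 0, from 0.35 for Actg1 upwards, while those left of it lie on both sides of 0, from -0.85 for Usp36 to 2.58 for Dnah17.

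The sums on either side of this boundary regroup the same UMIs. The 18 members from Socs3 to Rptor had 704 UMIs in PD100 and 768 in PD800, or 385 CPM (358 to 415) and 298 CPM (277 to 319), and their relative log2 ratio was -0.03 (-0.18 to 0.12). The 38 members from Chmp6 on, without Actg1, had 5968 UMIs in PD100 and 15310 in PD800, or 3268 CPM (3186 to 3352) and 5932 CPM (5838 to 6027). Their relative log2 ratio was 1.20 (1.16 to 1.25), a 2.30-fold difference. With Actg1 it was 0.84 (0.81 to 0.87).

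The region also holds 12 tested genes that are not in the list, and 3 of them lie before Chmp6. Ccdc40, a cilium assembly gene, was at -0.65 relative to the median, and Eif4a3, the helicase of the exon junction complex, at -0.02. Dnah17, an axonemal dynein gene, was at 2.58, above all 9 beyond Chmp6, and it overlaps Pgs1 by 2289 bases on the opposite strand. The other 9 lie beyond Chmp6 and all were above the median, with a relative median of 1.57 (0.83 to 2.14). They ranged from 0.53 for the lactate transporter gene Slc16a3 and 0.83 for Tex19.1, a germ cell and stem cell gene, to 2.37 for Oxld1. Dcxr, which encodes a dicarbonyl and xylulose reductase, went from 129 UMIs in PD100 to 484 in PD800, a relative log2 ratio of 1.75 (1.47 to 2.04). Ogfod3 went from 39 to 168 UMIs, Cep131, a centrosome gene, from 13 to 43, Faap100, a Fanconi anaemia core gene, from 46 to 104, and the noncoding Gm17586 from 25 to 80. Gm16755, from 27 to 133 UMIs, overlaps Mrpl12 by 2244 bases on the opposite strand.

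The genes just inside the listed region did not differ in this way from those just outside it. Socs3 and Pgs1, the first members, were at 0.59 and -0.46. The 5 tested genes before them were Birc5, which encodes survivin, at 0.78, the thymidine kinase gene Tk1 at -0.06, Syngr2 at 0.33, Tmc6 at 0.16 and Tnrc6c at 0.61. In 1 Mb steps from the end, the relative median was 1.59 over 7 genes in the last Mb and 1.23 over 32 genes in the next. It was -0.02 over 7 genes between 2 and 3 Mb, -0.14 over 4 genes between 3 and 4 Mb and 0.33 over 9 genes between 4 and 5 Mb. The 569 tested genes of chromosome 11 before Socs3 had a relative median of -0.27 (-0.36 to -0.21). Of them, 39 were at least 2-fold higher, where 13.9% of all genes compared were.

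**Figure D2:**
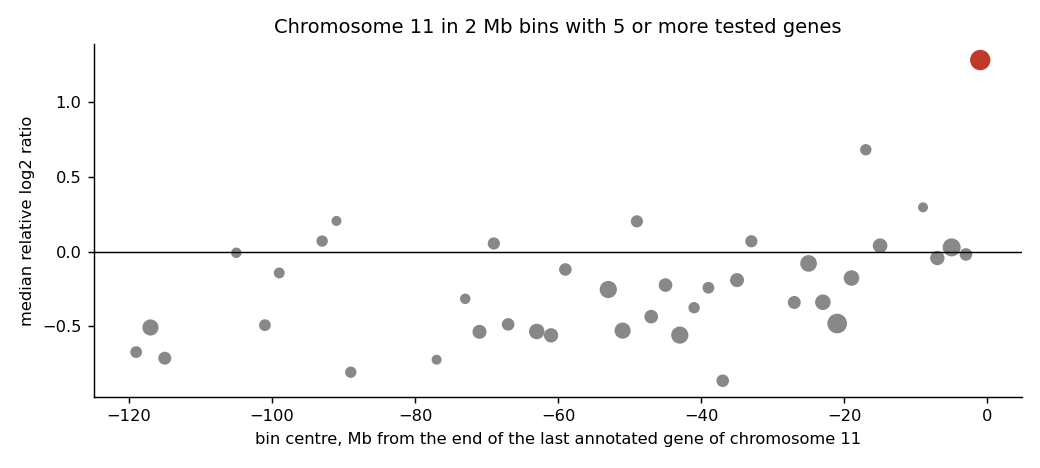
Median relative log2 ratio of the tested genes in 2 Mb bins of chromosome 11, against the distance of the bin centre from the end of the last annotated gene in Mb. Each point is a bin with 5 or more tested genes and its area grows with their number. The last bin (red) was at 1.28, and the other bins, 40 in all with the last, lay between -0.86 and 0.68.

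The ends of other chromosomes were not all alike. Over the last 4 Mb by annotation, with listed and unlisted genes together, chromosome 11 had a relative median of 1.23 (1.02 to 1.48) over 50 tested genes, of which 44 were above the median of all genes. Chromosome 16 had 1.39 (1.14 to 2.11) over 9 genes and chromosome 6 had 1.22 (0.64 to 2.36) over 15. The last 4 Mb of chromosome 8 were at -1.60 (-3.42 to -1.14) over 7 genes.

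Several members from Chmp6 on lie head to head, so that transcription of both starts from the same short gap. Both genes of each of 3 such pairs were higher in PD800. The gaps are printed in plus-strand orientation from RefSeq records of GRCm38.p6, because they lie upstream of both genes in the GENCODE and in the RefSeq annotation, whose starts can differ by a few bases. They cover chr11:120467608-120467634 between Arl16 and Hgs, chr11:120598366-120598420 between Alyref and Anapc11, and chr11:120784208-120784269 between Rfng and Gps1. Capitals mark CCGGAA or its reverse complement TTCCGG, the core bound by ETS family factors.
Arl16 and Hgs gap, 27 bases: ggcggcgcggaggcgttgcgcgtgcgc
Alyref and Anapc11 gap, 55 bases: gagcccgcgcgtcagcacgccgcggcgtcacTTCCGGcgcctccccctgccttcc
Rfng and Gps1 gap, 62 bases: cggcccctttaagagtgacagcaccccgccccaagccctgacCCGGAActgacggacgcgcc

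The pair Alyref and Anapc11 gave the clearest differences in counts. Alyref, which encodes an mRNA export adaptor, had 364 UMIs in PD100 and 1486 in PD800, or 199 and 576 CPM, a relative log2 ratio of 1.87 (1.71 to 2.04). Anapc11, the RING subunit of the anaphase-promoting complex, had 869 and 2498 UMIs, or 476 and 968 CPM, a relative log2 ratio of 1.37 (1.25 to 1.48). The interval of Alyref lay above that of its partner, although the starts are 55 bases apart.

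Gps1, a subunit of the COP9 signalosome that removes NEDD8 from ubiquitin ligases, had 618 UMIs in PD100 and 1559 in PD800, at 1.18 (1.04 to 1.32). Rfng, a fringe glycosyltransferase of the Notch pathway, had 55 and 171 UMIs, at 1.48 (1.03 to 1.95). In this pair the intervals overlapped. Arl16, an Arf-like GTPase gene, had 43 and 205 UMIs, at 2.10 (1.62 to 2.61), and Hgs, a component of the first endosomal sorting complex, had 119 and 261 UMIs, at 0.98 (0.66 to 1.30). The annotation holds a second gene record of the name Hgs at this place, so its counts may have been divided or lost.

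Among the 32 tested members from Chmp6 on, Actg1 stood furthest from their relative median. It had 5892 UMIs in PD100 and 8372 in PD800, or 3226 CPM (3145 to 3310) and 3244 CPM (3175 to 3314). Its plain log2 ratio was 0.01 (-0.04 to 0.06) and its relative one 0.35 (0.30 to 0.40), the lowest of the 32 tested members from Chmp6 on. Actin transcripts are alike in sequence and have processed pseudogenes, so reads may be shared among them. The 250 bases before its start, chr11:120348496-120348745 on the minus strand, hold a CArG box, the element bound by serum response factor, given in capitals. They are shown because no other RefSeq record of the members held this element. The share of the members' records with it, 1.75%, was near the 1.47% of all records, so it does not set the members apart.
Actg1 upstream: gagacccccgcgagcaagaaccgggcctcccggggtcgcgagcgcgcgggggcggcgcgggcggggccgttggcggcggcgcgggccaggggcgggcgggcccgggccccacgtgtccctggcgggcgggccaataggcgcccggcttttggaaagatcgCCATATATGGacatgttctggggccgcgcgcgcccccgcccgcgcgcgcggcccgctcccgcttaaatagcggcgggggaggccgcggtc

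RefSeq promoter records were found for 46 of the 57 members, 57 records in all. In the 250 bases upstream, searched on both strands, a CArG box was present in 1 of the 57 records, that of Actg1. This was 1.75% of them, near the 1.47% of all 32851 records. The letters GGGCGG, a GC box, were in 63.2% of the members' records and in 32.7% of all records. CCAAT was in 42.1% against 33.9%, CCGGAA in 26.3% against 12.0%, and TATAAA in 2 records of members, those of Baiap2 and Alyref, or 3.51% against 12.4%. The head-to-head pairs share part of their upstream sequence, so their records are not separate observations. The differences between these shares were not tested.

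**Figure D3:**
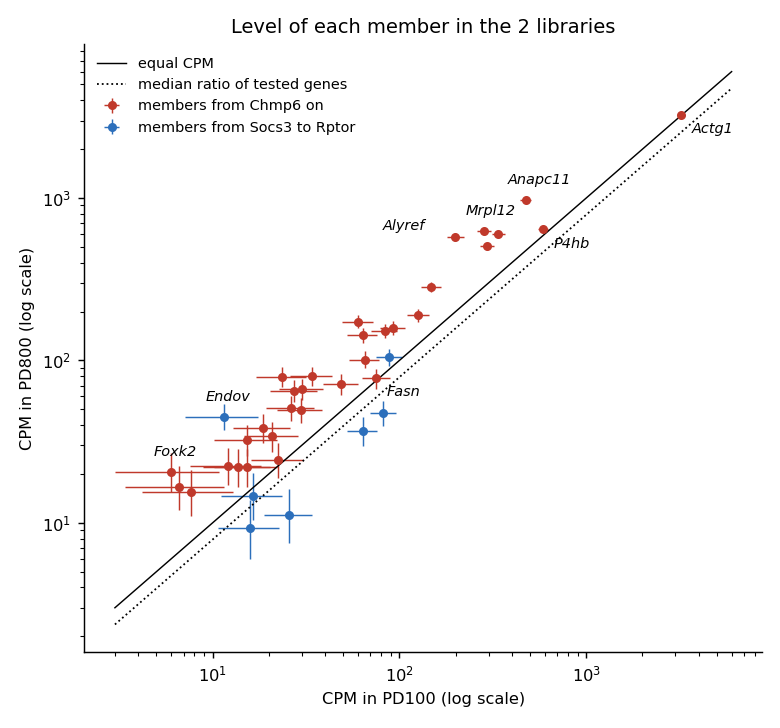
CPM of each of the 39 members in PD800 against PD100, both on log scales, with exact Poisson 95% intervals. Red points are the 32 members from Chmp6 on and blue points the 7 from Socs3 to Rptor, the solid line marks equal CPM and the dotted line the median ratio of all tested genes. Alyref, Mrpl12 and Anapc11 lie well above the solid line, Actg1, P4hb and Fasn lie near it, and 5 of the 7 blue points lie below it.

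The 5 genes grouped here for the cytoskeleton and Rac-type GTPases were all above the median, and 4 were at least 2-fold higher, with Actg1 as the exception. The group does not include the GTPase genes Arl16, given above, and Rab40b, which was under the minimum. In the whole block 24 of 32 were that much higher, and of all genes compared 13.9%. Arhgdia, a GDP dissociation inhibitor that holds small GTPases in the cytosol, had 539 UMIs in PD100 and 1300 in PD800, at 1.11 (0.97 to 1.26). Rac3, a Rac GTPase gene, had 54 and 127 UMIs, at 1.08 (0.61 to 1.56). Baiap2, which encodes the actin regulator IRSp53 that binds Rac, had 62 and 206 UMIs, at 1.58 (1.16 to 2.01). Tbcd, a tubulin folding cofactor, had 50 and 168 UMIs, at 1.59 (1.13 to 2.08). Tbcd was the last member along the chromosome with 50 or more UMIs.

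In the ubiquitin and NEDD8 pathway, the 3 tested members beyond the boundary were each at least 2-fold higher, and the 1 before it was lower. As 24 of the 32 tested members of the block were that much higher (13.9% of all genes compared), this count does not single out the pathway. Anapc11 and Gps1 are given above. Nploc4, a cofactor of the p97 segregase, had 34 UMIs in PD100 and 99 in PD800, at 1.38 (0.81 to 1.99). Usp36, a nucleolar deubiquitinase, lies before the boundary and had 47 and 29 UMIs, at -0.85 (-1.57 to -0.16). This was the lowest value among the 39 members.

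Mitochondrial and metabolic genes ranged widely. Mrpl12, a mitochondrial ribosomal protein gene, had 518 UMIs in PD100 and 1610 in PD800, or 284 and 624 CPM, at 1.48 (1.33 to 1.62). Its opposite-strand neighbour Gm16755 had far fewer UMIs. Slc25a10, the mitochondrial dicarboxylate carrier, had 12 and 43 UMIs, at 1.68 (0.74 to 2.74). Pycr1, an enzyme of proline synthesis, had 25 and 57 UMIs, at 1.03 (0.33 to 1.77), just above a 2-fold difference, and Pcyt2, of phosphatidylethanolamine synthesis, had 230 and 488 UMIs, at 0.93 (0.70 to 1.16), just below it. Fasn, fatty acid synthase, had 137 and 200 UMIs, a plain log2 ratio of 0.05 (-0.27 to 0.37) and a relative one of 0.39 (0.07 to 0.71). Pgs1, which acts in cardiolipin synthesis and lies before the boundary, had 150 and 122 UMIs, at -0.46 (-0.81 to -0.10).

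Of the 5 tested genes of membrane sorting and lysosomes, 4 lie from Chmp6 on. Chmp6, a subunit of the late endosomal sorting complex and the first gene of the block, had 116 UMIs in PD100 and 369 in PD800, at 1.51 (1.21 to 1.83). Wdr45b, which encodes an autophagy protein that binds phosphoinositides, had 110 and 447 UMIs, at 1.87 (1.56 to 2.18). Aspscr1, a tether of glucose transporter vesicles, had 89 and 184 UMIs, at 0.89 (0.52 to 1.27). Gaa, the lysosomal alpha-glucosidase, was the only tested gene of this group before the boundary. It had 116 UMIs in PD100, as many as Chmp6, but 95 in PD800, at -0.45 (-0.85 to -0.04).

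Of the secretory pathway genes, P4hb, which encodes protein disulphide isomerase, had 1072 UMIs in PD100 and 1652 in PD800, or 587 and 640 CPM, at 0.47 (0.36 to 0.58). With Actg1, Fasn and Fn3krp it was among the members of the block with the smallest differences. Cant1, a calcium-activated nucleotidase of the Golgi before the boundary, had 30 and 38 UMIs, at 0.18 (-0.55 to 0.92).

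Of the 9 genes of the nucleus and of RNA metabolism 6 were tested, and these 6, with Endov before the boundary among them, were at least 2-fold higher, as 13.9% of all genes compared were. Besides Alyref, Dus1l, a tRNA dihydrouridine synthase, had 270 UMIs in PD100 and 732 in PD800, at 1.28 (1.08 to 1.49). Mafg, a small Maf transcription factor, had 168 and 410 UMIs, at 1.13 (0.87 to 1.40), and Sirt7, a nucleolar sirtuin, had 48 and 131 UMIs, at 1.29 (0.80 to 1.80). Sirt7 and Mafg overlap by 124 bases on the same strand, so some reads could belong to either. Foxk2, a forkhead factor, had 11 and 53 UMIs, at 2.11 (1.16 to 3.20), the highest value among the 32 tested members from Chmp6 on, with a wide interval. Its 53 UMIs in PD800 reached the minimum of 50 by themselves.

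Endov was the exception before the boundary. It encodes endonuclease V, which cleaves RNA at inosine, and had 21 UMIs in PD100 and 116 in PD800, at 2.31 (1.63 to 3.05). It was also the only member among the 39 whose transcript carried a certain repeat-derived sequence. A transcript was counted as carrying it if it held 5 or more of its 20-base stretches. The 325 tested genes that carried it had a relative median of 1.55, and the 6463 that did not had -0.03. The stretches were those shared by at least 2 of 4 chosen transcripts. These 4 were not excluded from the genes compared, so the 2 medians are a description. Endov had 5 such stretches, the minimum, and the unlisted gene Gm16755 beyond the boundary had 40. Whether the repeat had a part in the value of Endov was not tested.

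Among signalling genes, Csnk1d, casein kinase 1 delta of the circadian clock and Wnt signalling, had 152 UMIs in PD100 and 394 in PD800, at 1.22 (0.94 to 1.50). Notum, a secreted enzyme that inactivates Wnt proteins, had 28 and 83 UMIs, at 1.41 (0.78 to 2.08). Both lie in the block. Socs3, the feedback inhibitor of the LIF pathway that mESCs depend on, was the first listed gene and had 161 and 271 UMIs, at 0.59 (0.31 to 0.88). Rptor, the scaffold of mTOR complex 1 and the last tested gene before the boundary, had 29 and 24 UMIs, at -0.43 (-1.27 to 0.40).

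The remaining tested members were also above the median. Slc38a10, of the amino acid transporter family, had 38 UMIs in PD100 and 88 in PD800, at 1.05 (0.49 to 1.64). Lrrc45, a centrosome linker gene, had 22 and 58 UMIs, at 1.24, and Narf 14 and 40 UMIs, at 1.36. Ccdc137 had 28 and 57 UMIs, at 0.87. Fn3krp, a repair kinase for glycated proteins, had 41 and 63 UMIs, at 0.46 (-0.13 to 1.07), and it was the only one of the 32 whose interval reached the median of all genes.

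The other 18 members were under the minimum of UMIs for the comparison. Some still had a relative interval that excluded 0. On the side of Socs3 these were Timp2, at -4.55 (-7.64 to -2.61), and Cyth1, at -1.66 (-3.29 to -0.25). For Lgals3bp, with no UMIs in PD800, the upper limit was -2.20. The other intervals on that side included 0. Before the boundary, Timp2, an inhibitor of metalloproteinases, had 42 UMIs in PD100 and 2 in PD800, and 21 of the 42 were in the 40 cells with endoderm markers. Lgals3bp, a secreted galectin-binding protein gene, had 17 and 0, Cyth1 17 and 6, Engase 27 and 16, Rnf213 17 and 11, Tbc1d16 9 and 6, and Slc26a11 5 and 4. The Polycomb genes Cbx2 and Cbx8 had 12 and 19 UMIs and 2 and 7 UMIs. C1qtnf1 and Sgsh had 1 UMI in each library.

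Beyond the boundary, the 7 members with few UMIs had 32 in PD100 and 71 in PD800 in sum. Ccdc57 had 1 UMI in PD100 and 17 in PD800, B3gntl1 6 and 23, Bahcc1 11 and 23, Aatk 1 and 4, Rab40b 0 and 1, and Fn3k 3 and 2. The relative interval was above 0 for Ccdc57, at 3.93 (1.26 to 9.32), and for B3gntl1, at 1.78 (0.44 to 3.37). Metrnl, a secreted factor and the listed gene closest to the telomere, had 10 UMIs in PD100 and 1 in PD800. Its relative log2 ratio was -3.48 (-8.92 to -0.67), an interval below 0. Metrnl and Fn3k were the members of the block whose UMIs were not higher in PD800. None of the 10 UMIs of Metrnl came from the cells with endoderm markers.

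The strand on which a gene lies made little difference to these values. The 15 tested members of the block on the plus strand had a relative median of 1.36, and the 17 on the minus strand 1.22. The members' transcripts were richer in G and C than those of all tested genes, with medians of 55.9% and 49.3%. When a trend over GC content and transcript length was removed, the relative median of the 39 members was 1.47.

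Relatives and partners encoded elsewhere in the genome served as a comparison for the functions of the members. In 28 pairs of a member and a counterpart from the same family, pathway or complex, both had 50 or more UMIs, and the member had the higher ratio in 25. These pairs come from 16 members, some of them counted up to 3 times, and lie in a region selected on its high ratios, so the count is a description. In 27 of the 28 pairs the member lies from Chmp6 on, and it had the higher ratio in 24 of these. The boundary of that block was itself placed after the values were seen, and the count says little about members before it. The counterparts had a relative median of -0.03 (-0.39 to 0.49). Wdr45, a relative of Wdr45b, was at -1.55. The mitochondrial ribosomal genes Mrpl11 and Mrpl13 were at -0.40 and 0.19, where Mrpl12 was at 1.48.

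Subunits of the same complex differed as well. Cops2, Cops3 and Cops5 of the COP9 signalosome were at 0.65, -0.66 and -0.28, where Gps1 was at 1.18, and Anapc2 and Anapc13 were at -0.05 and 0.97, where Anapc11 was at 1.37. Actb, which encodes beta-actin, was at -0.42, or 1096 CPM in PD100 and 645 CPM in PD800, where Actg1 was at 0.35. The lipid synthesis genes Acaca and Acly were at -0.86 and -1.20, where Fasn was at 0.39. In 3 pairs the counterpart was the higher one. Arhgdib was at 2.70 against 1.11 for Arhgdia, Sirt1 at 2.66 against 1.29 for Sirt7, and Stam at 1.05 against 0.98 for Hgs. The counterparts Cbx1, Acaca, Acly, Slc25a11 and Cops3 also lie on chromosome 11, before the listed region.

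**Figure D4:**
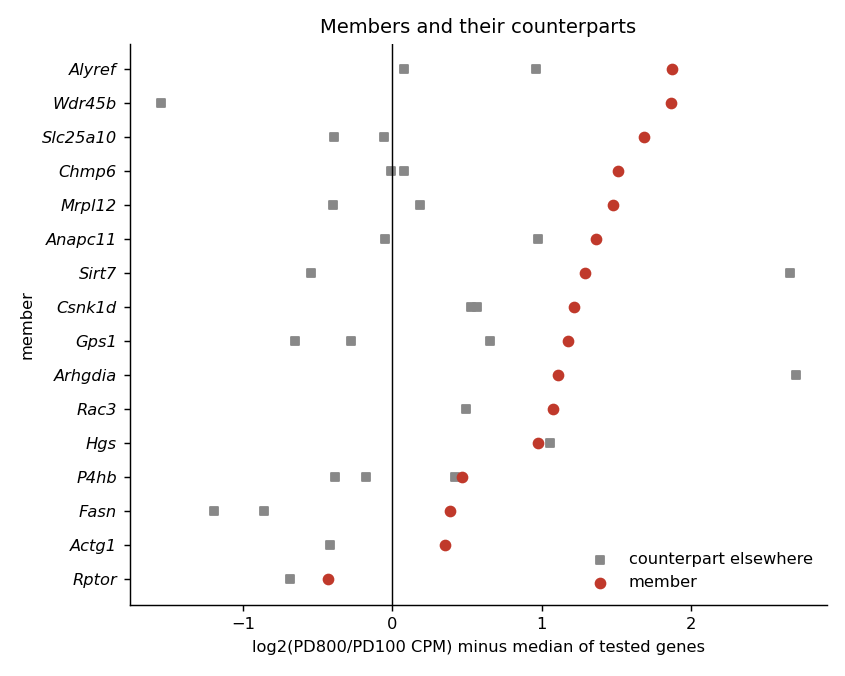
Relative log2 ratio of members (red circles) and of their counterparts elsewhere in the genome (grey squares), for pairs in which both had 50 or more UMIs. Each line along the vertical axis is 1 member, and the vertical line marks the median of all tested genes. The member lies to the right of its counterpart in 25 of 28 pairs, of which 27 have a member from Chmp6 on. A counterpart of each of Arhgdia, Sirt7 and Hgs lies further right.

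Within each library the spread between cells was measured after each cell was thinned to 1000 UMIs. The members from Chmp6 on, without Actg1, gave a mean of 3.29 UMIs per PD100 cell and 5.95 per PD800 cell, with medians of 3 and 6. In PD800, 91.4% of cells held at least the PD100 median of 3, and in PD100 58.6% did. The ratio of variance to mean, which is 1 for counting noise alone, was 1.50 in PD100 and 1.21 in PD800. Free RNA captured in the droplets was not separated from that of the cells, and its part in these values was not tested.

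Actg1 differed from the block in its mean, which was not higher in PD800, while the spread of both was lower there. Its mean was 3.30 UMIs per cell in PD100 and 3.28 in PD800, while the ratio of variance to mean was 2.23 in PD100 and 1.47 in PD800. Without the cells with endoderm markers the PD100 ratio was 2.24. In those 40 cells the mean of Actg1 was 4.48 UMIs, and that of the members from Chmp6 on without Actg1 was 4.23. Splitting these members alternately along the chromosome, the sums of the odd and even members had a Pearson correlation across cells of 0.01 in PD100 and 0.04 in PD800, over 814 and 900 cells. At a few UMIs per cell such weak correlations show nothing either way.

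**Figure D5:**
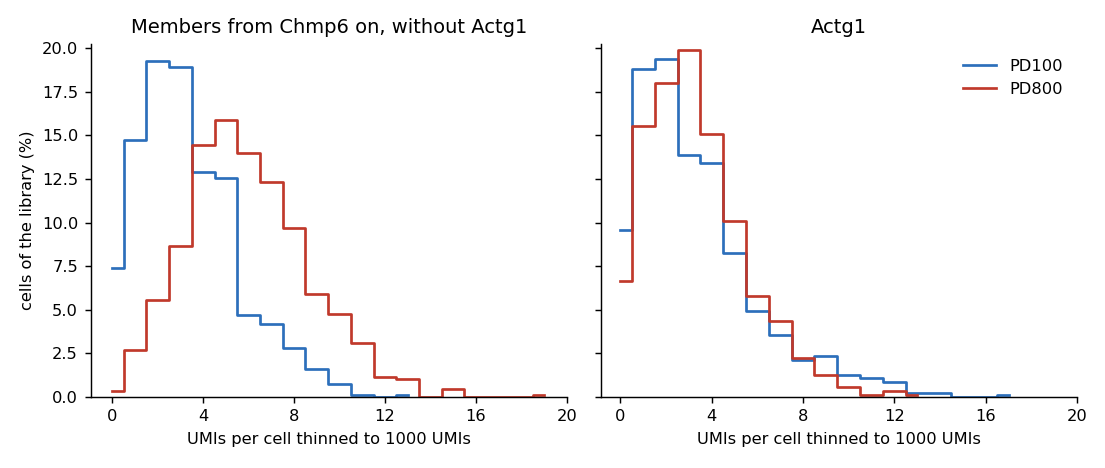
Share of cells of each library (%) against the UMIs per cell after thinning to 1000 UMIs, for the 38 members from Chmp6 on without Actg1 (left) and for Actg1 (right), PD100 in blue and PD800 in red. The left PD800 curve is shifted to the right as a whole, with means of 5.95 and 3.29, while the Actg1 curves overlap, with means of 3.28 and 3.30.

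Other features of the libraries moved with the time point. The mitochondrial share and the endoderm markers are given above. The part of the mitochondrial share in the members' values was not tested. Leaving out the 40 PD100 cells with endoderm markers gave a relative median of 1.14 for the members. DNA copy number was not analysed here, and its part in these values was not tested.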

How the data were processed

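Single-cell libraries of PD100 and PD800 cells were analysed, 1 per time point. The authors deposited UMI counts per barcode and gene, made with the inDrops pipeline on a GRCm38/mm10 transcriptome. The submitters' processing notes name Scanpy and mm10. Here barcodes with 1000 or more UMIs and at most 20% mitochondrial UMIs were kept, somewhat more cells than the study kept by its stated filter. No doublet caller was run. UMIs were summed over the cells of each library and scaled to parts per 1000000 (CPM), with exact Poisson intervals for levels and exact Clopper-Pearson intervals for ratios. A median's interval comes from order statistics. Only genes whose UMIs in both libraries together reached 50 were compared, and ratios are relative to the median of these genes. Thinning drew 1000 UMIs per cell with seed 1. Positions came from GENCODE M21 and promoter records from RefSeq, GRCm38.p6, with 46 of 57 members matched. Repeat-derived sequence was counted as shared 20-base stretches, 5 or more per transcript. The members, counterparts, markers and groupings were chosen with earlier results of these data known. 1 counterpart of the list is not reported here and was left out of its counts. Every member is named, besides counterparts, the 5 genes before the region, its unlisted tested genes and markers. The ratio script was tested on simulated data. Python 3.11.15, NumPy 2.4.6, SciPy 1.17.1 and pandas 2.3.3 were used.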

Additional observations from a re-analysis of the deposited data

Results flagged for a closer look

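The barcodes that the filter left out, 477 in PD100 and 766 in PD800, took no part in the comparisons above. They entered only the alternative run without a filter on cells, and also held a signal of this region. In them the members from Chmp6 on, without Actg1, had 848 UMIs in PD100 and 2493 in PD800. That is a level of 3436 CPM (3209 to 3675) in PD100, and PD800 reached 5439 CPM (5227 to 5657). By library totals the plain log2 ratio of these barcodes was 0.66 (0.55 to 0.78), where that of the cells kept was 0.86 (0.82 to 0.90). Relative to the median of the genes compared, it was 0.86, against 1.20 in the cells kept. The plain log2 ratio of the members from Socs3 to Rptor, from 87 UMIs in PD100 and 155 in PD800, was -0.06 (-0.45 to 0.34). In the cells kept it was -0.37 (-0.52 to -0.22). The plain log2 ratio of Actg1 in the barcodes left out, from 785 and 1582 UMIs, was 0.12 (-0.01 to 0.24). These barcodes come from the same libraries as the cells kept, and whether they hold cells or free RNA was not tested.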

How the results depend on the processing

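The relative median of the members lay between 1.00 (cells with at least 2000 UMIs) and 1.47 (GC content and length trend removed) over 12 alternatives, against 1.18 as reported, and only the last moved past its interval. Another 2, which rescale all genes alike, cannot change a relative value. The number at least 2-fold higher, 25 as reported, was 14 at a minimum of 200 UMIs, where 23 members remained to compare. It was 17 of 27 after thinning to 1000 UMIs and 19 of 35 in cells with at least 2000 UMIs. At a minimum of 20 UMIs it was 26, and with the GC content and length trend removed 28. At a minimum of 20 UMIs 2 members were at least 2-fold lower. Under median-of-ratios scaling the plain median moved to 1.31 and the summed log2 ratio to 0.93, from 0.84 and 0.46. That sum was 0.51 with totals without mitochondrial genes and 0.77 without Actg1. The spread of the sum of all members between cells was 1.99 in PD100 and 1.34 in PD800. It became 3.07 and 1.98 without thinning, 2.96 and 1.60 at 2000 UMIs, and 1.50 and 1.21 without Actg1. The causes were not tested. Of 234 values of single members under the 6 alternatives that can change them, 214 stayed within their counting interval and 20 moved outside it. The only change of sign was that of Cant1, to -1.02 after thinning, and no member at least 2-fold higher as reported changed its sign. The 192 values of the 32 tested members from Chmp6 on were above the median, the lowest at 0.02. No paired analysis was possible because each time point has 1 library, and no library could be left out. The plain medians and the spread of Actg1 without endoderm marker cells were added after seeing the data. Depth limits members under 50 UMIs, which the main comparison left out.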
